A study of Drosophila melanogaster with 5 samples.

Results

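Glutathione S-transferases are detoxification enzymes that join the tripeptide glutathione to reactive or toxic molecules, which makes these molecules soluble and ready for export. The genes described here are those of Drosophila melanogaster whose probe carried a single gene symbol made of Gst, a class letter (D, E, O, S, T or Z for Delta, Epsilon, Omega, Sigma, Theta and Zeta) and a number. Of 35 such genes in the RefSeq gene table, 33 had a probe on the arrays and 32 had a value, out of 10125 measured genes. GstT1 and GstT4 had no named probe here, and the probe of GstD5 was empty on every array.

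The study compared whole adult females without insulin-producing cells, a small group of brain neurons that release insulin-like peptides, with control females. The deficient flies came from a cross of InsP3-Gal4 with UAS-RPR/HID, in which the driver InsP3-Gal4 switches on the cell death genes reaper and hid. The controls came from a cross of the same driver with UAS-LacZ, so both groups carried InsP3-Gal4. All flies were 14 days old, had been separated from males only before the feeding period, and had eaten yeast paste as their only food for 48 h. RNA of whole animals was used, so fewer cells of a type and less RNA per cell cannot be told apart. The RNAs of both groups shared each of 5 two-colour spotted arrays, made from 2 biological repeats, with IPC-deficient RNA (IPC, insulin-producing cell) in Cy5 on arrays 1 and 2 and in Cy3 on arrays 3, 4 and 5.

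The authors deposited 1 signed fold change per probe, repeated in every filled column. All values below are log2 of its size with the sign kept, and a positive value is read as higher in IPC-deficient flies. This direction is likely but not stated. Its basis is that the series' design gives the deficient flies before the controls, and that tobi (target of brain insulin) stood at -4.10. With the sign turned, every direction below would be the opposite. Because array and fly replicates are already combined in the value, there is no replicate error and no test. Reliability was instead judged from the number of usable spots of a probe, at most 10, and from the SD between probes. This SD is the pooled difference among unlike probes for 1 gene, and over 647 genes whose 1437 probes had values on all 5 arrays it was 0.18 in log2 units. Over all 2649 probes of 1167 genes, poorly filled ones included, it was 0.56. Below, "the SD between probes" is the value of 0.18, which understates the error of the 9 members with values on fewer arrays. It does not cover the spread between flies.

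Delta and Epsilon transferases are the classes that expanded in insects and are best known from insecticide resistance. Omega, Sigma, Theta and Zeta transferases are also found outside insects and include enzymes with housekeeping substrates. In flies, transferases of this family are known from the gut, Malpighian tubules and fat body, and many are induced through CncC, the fly counterpart of the stress regulator Nrf2.

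The family as a whole stood close to 0. Of the 32 genes, 23 lay within 1 SD between probes of 0, a share of 71.9%, against 67.8% of all measured genes. The other 9 were 8 genes above this band, where 15.4% of all genes lay, and 1 below it, where 16.8% lay. Against the wider SD of 0.56, 1 member (GstO3) lay above the band and 1 (GstE7) below it, beside 2.54% and 3.29% of all genes. The family median was 0.07, beside a median of -0.01 over all genes. Of the 32 genes, 22 were above 0, which is 68.8%, against 48.1% of all genes. At 1.5-fold or more, 1 member (GstO3) lay on the positive side, where 2.25% of all genes lay, and 1 member (GstE7) on the negative side, where 3.11% of all genes lay. These shares, 3.12% of members on each side, are near the background. Among genes with every probe on all 5 arrays, 1 of 23 members was beyond 1.5-fold on the positive side (1.96% of all such genes) and 0 on the negative side (0.704%). At 2-fold or more, 0 members were on the positive side (0.711% of all genes) and GstE7 on the negative side (1.45%). At 1.2-fold or more, a threshold added after the values were seen, 6 of 32 members lay on the positive side, where 8.98% of all genes lay: GstO3, GstE10, GstE11, GstE12, GstE14 and GstE3. At that threshold 1 member lay on the negative side, against 9.9% of all genes.

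**Figure D1:**
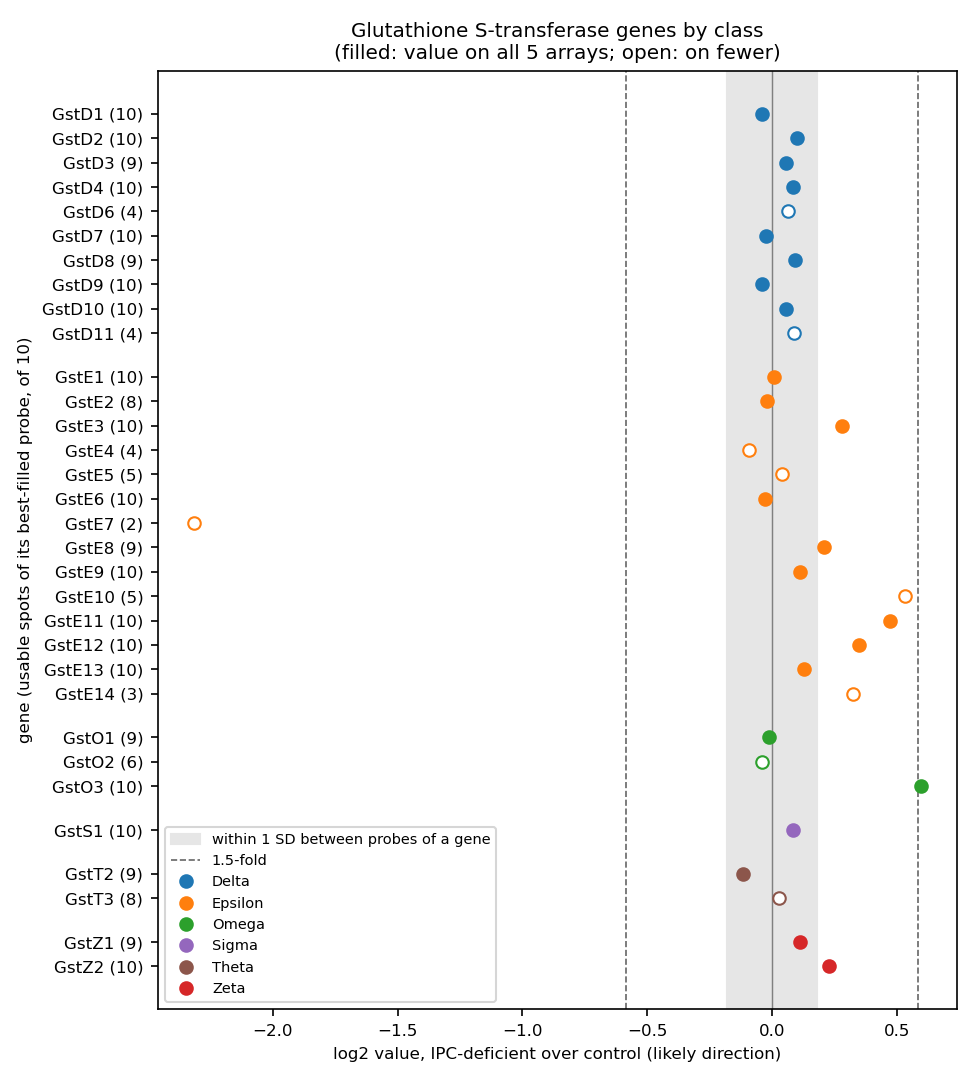
Log2 value of each of the 32 measured transferase genes (x axis) by class (y axis, with the usable spots of the best-filled probe in brackets). The grey band is 1 SD between probes of a gene (0.18), the dashed lines mark 1.5-fold, and there is 1 combined value per gene with no error between arrays. The 10 Delta genes all sit inside the band, 7 of 14 Epsilon genes sit outside it, and GstE7 stands alone at -2.31.

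The Delta genes lay close to 0 and to each other. All 10 lay within the SD between probes, where 67.8% of all genes lay. They ran from -0.04 for GstD1 to 0.10 for GstD2, and their median was 0.06. GstD1, which can break down the insecticide DDT and whose regulatory region is widely used as a reporter of oxidative stress, stood at -0.04 with all 10 spots usable. Beside it on the chromosome, GstD9 also stood at -0.04 and GstD10 at 0.06, each with 10 spots.

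The remaining Delta genes were as close to 0. GstD2 stood at 0.10 and GstD4 at 0.08 from 10 spots each, and GstD3 at 0.06 and GstD8 at 0.09 from 9 spots each. GstD7 stood at -0.03 from 10 spots. GstD6 at 0.06 and GstD11 at 0.09 rested on 4 spots each, on 3 of the 5 arrays. The whole span of the class, 0.14, was smaller than the SD between probes of a single gene.

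Epsilon genes were spread more widely than Delta genes. Their quartiles lay 0.33 apart, against 0.09 for the Delta class, and 7 of 14 lay outside the SD between probes, 6 above it (15.4% of all genes) and 1 below (16.8% of all genes). Of these 7, only GstE7 lay outside the wider SD of 0.56. The class median was 0.12, and 10 of the 14 genes were above 0, which is 71.4%, against 48.1% of all genes. The difference in spread between the classes was not tested, since each gene has 1 value.

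The positive side of the Epsilon class was led by GstE10 at 0.53, a 1.44-fold value from 5 spots on arrays 1, 2 and 3. GstE11 followed at 0.47 (1.39-fold) and GstE12 at 0.35 (1.27-fold), and both had all 10 spots usable. Among genes with every probe on all 5 arrays, GstE11 ranked 198 and GstE12 ranked 338 from the positive end of 6531 genes. GstE14, also called Noppera-bo, is needed for the synthesis of the steroid hormone ecdysone. It stood at 0.32 from 3 spots, 1 each on arrays 2, 3 and 4. GstE3 stood at 0.28 from 10 spots and GstE8 at 0.21 from 9.

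The other Epsilon genes lay inside the SD between probes, apart from GstE7. GstE1, which conjugates the lipid peroxidation product hydroxynonenal, stood at 0.01 and GstE6 at -0.03, with 10 spots each. GstE2 stood at -0.02 from 8 spots. GstE9 stood at 0.11 and GstE13 at 0.13, both from 10 spots. GstE5 stood at 0.04 from 5 spots and GstE4 at -0.09 from 4 spots on 2 arrays.

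GstE7 had the value furthest from 0 in the family, -2.31, a 4.97-fold difference and rank 26 from the negative end of all 10125 genes. It rested on 2 spots, 1 on array 2 and 1 on array 3, which carried IPC-deficient RNA in opposite dyes. Values from so few spots were often far on the negative side: of 367 probes with 2 usable spots, 22.6% lay beyond 1.5-fold on the negative side and 4.36% on the positive side. Among 4559 probes with 10 usable spots the shares were 0.395% and 2.15%. The part of the low spot number in the value of GstE7 was not tested. Without GstE7 the Epsilon median was 0.13 over 13 genes.

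The values of the Epsilon genes were also set out by their place in the genome. In the gene table of assembly Release 6, used only for the order of genes, 10 Epsilon genes form a run from GstE10 to GstE9 with at most 2 other genes between neighbours. The 4 others, GstE11, GstE12, GstE13 and GstE14, lie apart from this run and from each other. The run had a median of 0.02, with 6 of 10 genes above 0, against 48.1% of all genes. Above the SD between probes lay 3 of its genes (GstE10, GstE3 and GstE8), against 15.4% of all genes. The 4 genes elsewhere were all above 0, from 0.13 to 0.47, with a median of 0.34. This split was chosen after the values were seen, and 1 of the 4 genes, GstE14, rests on 3 spots.

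Some neighbours within the run lay close together, such as GstE1 at 0.01 and GstE2 at -0.02, and others far apart. GstE7 at -2.31 lies between GstE6 at -0.03 and GstE8 at 0.21, and GstE10 at 0.53 lies next to GstE1 at 0.01, with which its gene model overlaps. GstE7 and GstE10 rest on 2 and 5 spots. The Delta run is as compact, with 11 genes from GstD10 to GstD11 and at most 1 other gene between neighbours, but its 10 measured genes stood within 0.14 of each other. Genes in such runs are related copies, and spotted probes of related genes can cross-hybridise, which leaves each single value uncertain.

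**Figure D2:**
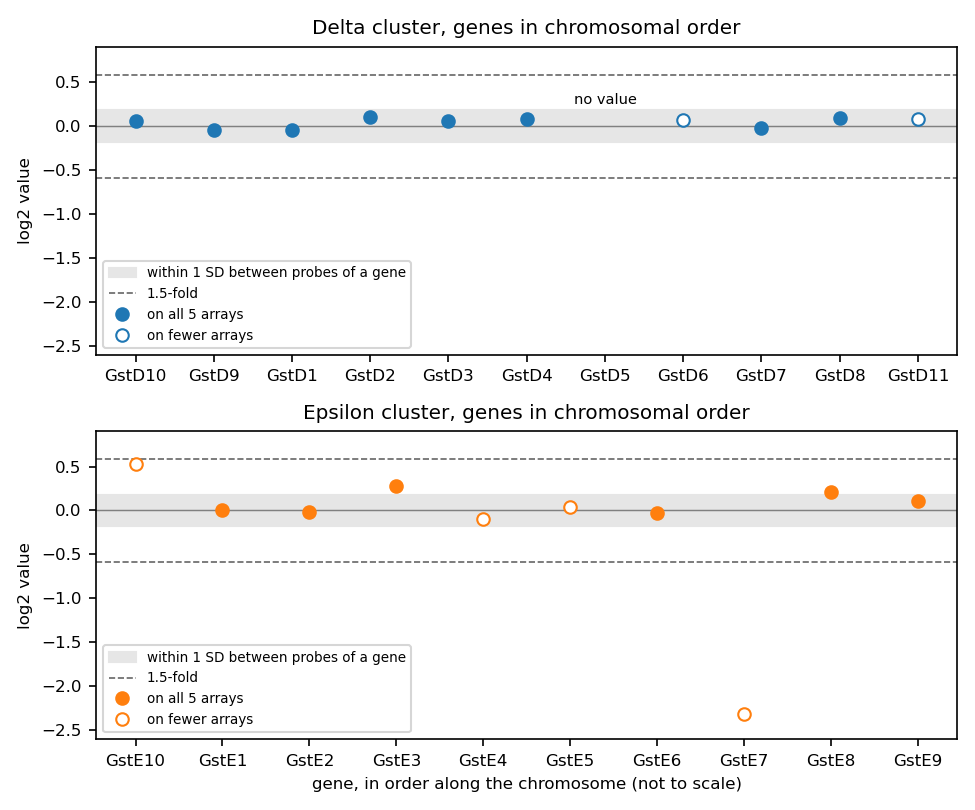
Log2 value (y axis) of the Delta genes (upper panel) and of the Epsilon genes of the main run (lower panel), in order along the chromosome and not to scale. Filled points have a value on all 5 arrays, the grey band is 1 SD between probes (0.18) and dashed lines mark 1.5-fold. The Delta points lie between -0.04 and 0.10, while the Epsilon points run from -2.31 for GstE7 to 0.53 for GstE10.

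Omega transferases act as thiol transferases and dehydroascorbate reductases. GstO3 stood at 0.59, a 1.51-fold value just past the threshold, with all 10 spots usable. It ranked 215 from the positive end of all 10125 genes and 122 among the 6531 genes with every probe on all 5 arrays. The other measured Omega genes, next to it on the chromosome, stood at -0.01 (GstO1, 9 spots) and -0.04 (GstO2, 6 spots on 4 arrays), so the class median was -0.01. A further probe of GstO2 had no value. The fourth Omega gene, se (sepia), falls outside the name pattern; it makes a precursor of the red eye pigments and stood at 0.11 from 8 spots.

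The remaining classes are small. Zeta transferases isomerise maleylacetoacetate in the breakdown of tyrosine and phenylalanine. Both Zeta genes were above 0, GstZ2 at 0.23 from 10 spots and GstZ1 at 0.11 from 9, and only GstZ2 lay outside the SD between probes. GstT2 stood at -0.12 from 9 spots and GstT3 at 0.03 from 8 spots, so the Theta class was on both sides of 0. GstS1, the Sigma transferase that is abundant in flight muscle, had 2 probes with 10 spots each, at 0.18 and -0.02. Its value of 0.08 is their median, and the distance between them shows how far probes of 1 member can lie apart.

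The medians of the classes followed the order Zeta (0.17), Epsilon (0.12), Sigma (0.08), Delta (0.06), Omega (-0.01) and Theta (-0.05). The Sigma, Theta, Zeta and Omega values rest on 1, 2, 2 and 3 genes, and differences between the classes were not tested. Of the 23 members with a value on all 5 arrays, 16 were above 0, which is 69.6%. Among all genes with every probe on all 5 arrays the share was 49.9%. The median of these 23 members was 0.08, beside -0.0001 over all such genes. Their values ran from -0.12 (GstT2) to 0.59 (GstO3).

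The transferases were set beside the other large detoxification families, the cytochrome P450 enzymes, which oxidise foreign compounds, and the UDP-glycosyltransferases, which attach sugars to them. The quartiles of the transferases lay 0.17 apart, against 0.31 for 79 P450 genes, 0.36 for 32 UDP-glycosyltransferase genes and 0.23 for all genes. Beyond the SD between probes lay 9 of 32 transferases, 8 above and 1 below, against 22 above and 14 below of 79 P450 genes and 10 above and 3 below of 32 UDP-glycosyltransferase genes. Over all genes 15.4% lay above and 16.8% below. Medians were 0.07 for the transferases, 0.03 for the P450 genes and 0.01 for the UDP-glycosyltransferase genes. The families differ in how well their probes were filled. Among genes with every probe on all 5 arrays, 23 transferases had a median of 0.08 and 45 P450 genes also 0.08. The 16 such UDP-glycosyltransferase genes had a median of 0.06. In the same order, the quartiles of these genes lay 0.19, 0.40 and 0.33 apart, against 0.21 for all such genes. Differences between the families were not tested.

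**Figure D3:**
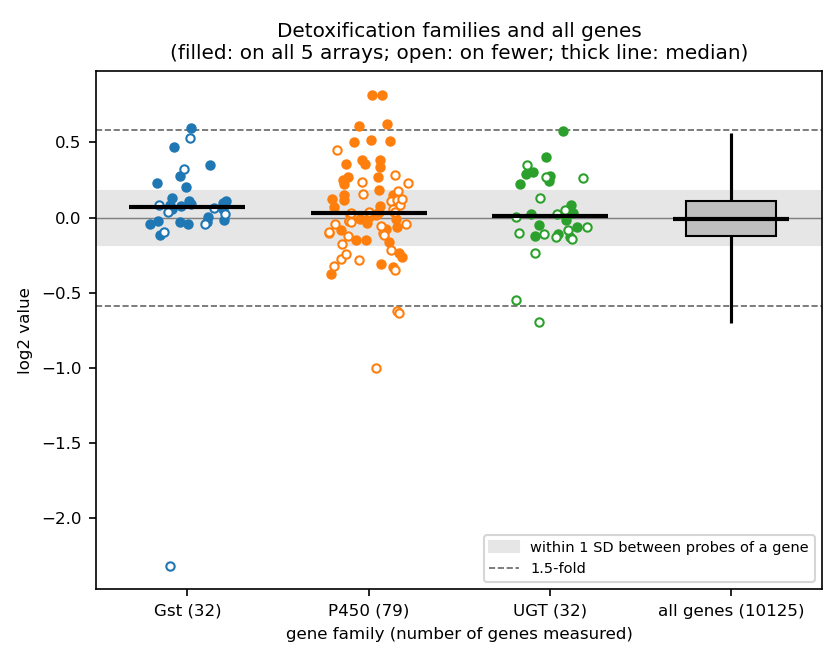
Log2 value (y axis) of each gene in 3 detoxification families and the distribution over all 10125 genes (box, quartiles; whiskers, central 95%; thick lines, medians). Filled points had every probe on all 5 arrays, the grey band is 1 SD between probes and dashed lines mark 1.5-fold. The family medians are 0.07, 0.03 and 0.01, and GstE7 lies far below every other point.

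Genes that supply, recycle or export glutathione gave the context of the family. Of 5 genes listed for glutathione synthesis, 2 were measured. These were Gclc and Gclm, the catalytic and modifier subunits of the rate-limiting enzyme, at 0.06 and 0.03 from 10 spots each. The regulators cnc, Keap1 and maf-S stood at 0.00, 0.09 and 0.03, where cnc encodes CncC, Keap1 holds it inactive and maf-S is its DNA-binding partner. The 3 probes of cnc lay at -0.15, 0.00 and 0.08. Gclc, Gclm, cnc, Keap1 and maf-S all stayed within the SD between probes, where 67.8% of all genes lay.

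Of 20 listed genes of glutathione turnover and glutathione-linked enzymes, 10 were measured. Of these, 1 lay beyond 1.5-fold, the glutaredoxin gene Grx1t at -2.02, and it rested on 2 spots, as did Grx5 at 0.46. Beyond 1.5-fold on the negative side lay 3.11% of all genes, and 22.6% of probes with 2 usable spots. The peroxiredoxin genes Prx6c and Prx6a stood at -0.31 from 10 spots and 0.24 from 9. Ggt-1, a gamma-glutamyl transpeptidase that breaks glutathione down, stood at 0.12, and the thioredoxin reductases Trxr1 and Trxr2, which recycle glutathione in flies, at -0.06 and -0.02. The glutaredoxin gene Grx1 stood at 0.02, Glo1, a glyoxalase that uses glutathione to remove methylglyoxal, at -0.05 and Fdh at -0.02.

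Of 8 listed ABCC transporter genes 6 were measured, and none of these reached 1.5-fold. Few genes did so at all, 2.25% on the positive and 3.11% on the negative side. MRP, an exporter of glutathione conjugates, stood at 0.19 from probes at 0.32 and 0.06. Sur, the sulfonylurea receptor, stood at -0.24, rdog at -0.14, Mrp4 at -0.10, CG11898 at -0.07 from 4 spots and CG9270 at 0.04. Of 8 genes outside the name pattern that were listed for a transferase-related product, 5 were measured, se among them. The microsomal transferase gene Mgstl stood at 0.52 from 6 spots on 4 arrays. The translation factor subunit gene eEF1gamma stood at 0.19, Clic, a chloride intracellular channel, at 0.12 and CG9393 at -0.14.

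**Figure D4:**
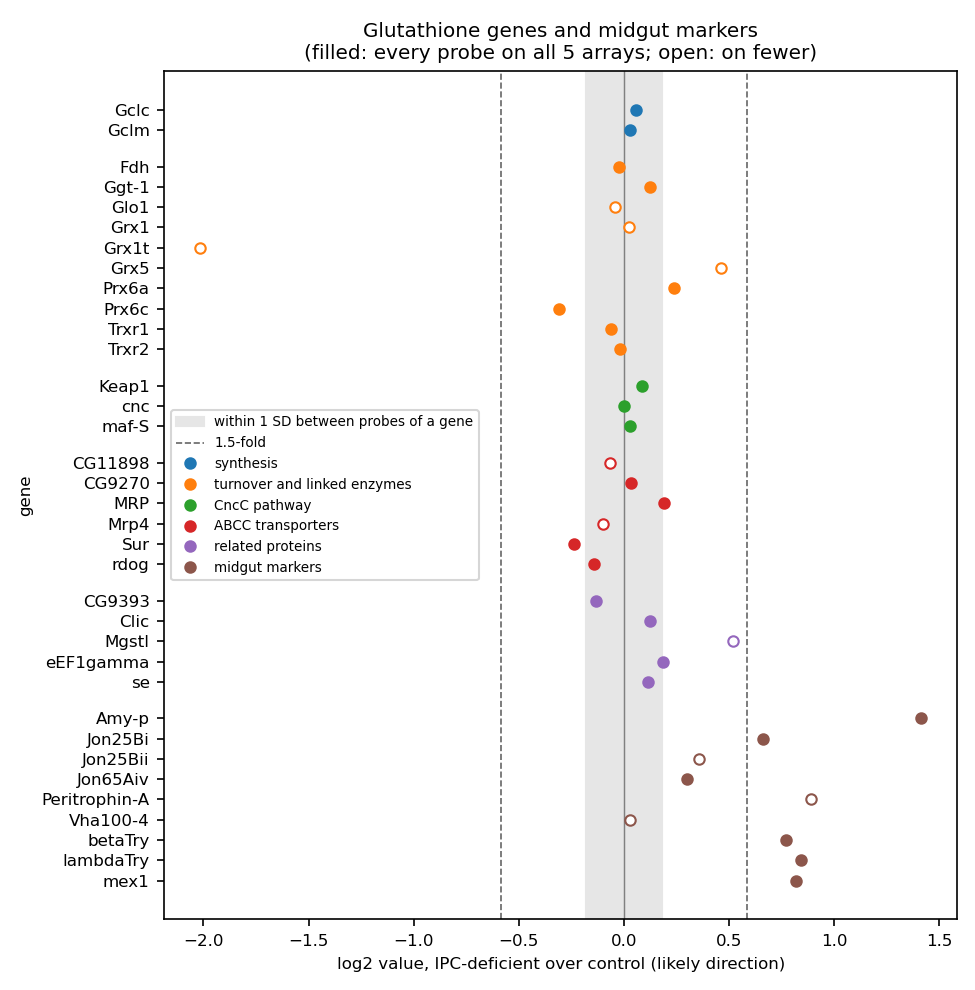
Log2 value (x axis) of genes of glutathione synthesis, turnover, regulation and transport, of transferase-related genes and of midgut markers (y axis). Filled points had every probe on all 5 arrays, the grey band is 1 SD between probes (0.18) and dashed lines mark 1.5-fold. Among the glutathione genes Grx1t lies at -2.02, and Grx5 (0.46), Prx6c (-0.31), Prx6a (0.24), Sur (-0.24) and MRP (0.19) also lie outside the band. So do the transferase-related genes Mgstl (0.52) and eEF1gamma (0.19). Of 9 midgut markers, 6 lie beyond 1.5-fold on the positive side, where 2.25% of all genes lie.

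Tissue markers were read in the same RNA. Of 10 midgut markers 9 were measured, all above 0 from 0.03 (Vha100-4) to 1.41 (Amy-p), with a median of 0.77. Of all genes, 48.1% were above 0. At 1.5-fold or more, 6 lay on the positive side, where 2.25% of all genes lay. Besides the amylase gene Amy-p, lambdaTry stood at 0.84, mex1 at 0.82 and Peritrophin-A at 0.89, the last from 3 spots on 2 arrays. The 5 measured Malpighian tubule markers had a median of -0.03. Irk3 stood at 0.23, Oatp58Dc at 0.09, salt at -0.03 from 1 spot and Oatp58Db at -0.17. ZnT35C stood at -0.84, midway between -1.78 (2 spots) and 0.11 (10 spots) at its probes. The 6 measured fat body markers had a median of -0.05. With 3 spots each, Fbp1 stood at 0.56 while Fbp2 stood at -0.55. Apoltp stood at 0.08, apolpp at -0.02, Lsp2 at -0.08 and Mtp at -0.24. The 6 measured accessory gland markers, which belong to males, were all below 0 with a median of -0.67, from -1.32 (Acp95EF) to -0.38 (Acp53Ea). Of all 10125 genes, 5250 were below 0. Beyond 1.5-fold on the negative side lay 3 of these markers, against 3.11% of all genes. Acp95EF rested on 4 spots, Acp36DE and Acp62F on 3 each and SP on 5. Acp53Ea (6 spots) and Acp26Aa (8 spots, -0.42) had values on all 5 arrays. Of probes with 3 usable spots, 12.9% lay beyond 1.5-fold on the negative side, against 0.395% with 10. The part of the low spot number in these values was not tested. The part of tissue composition in the values of GstO3 and the positive Epsilon genes was not tested.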

How the data were processed

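RNA of whole IPC-deficient and control flies was measured on 5 two-colour arrays. The score deposited by the authors is a signed fold change, made from 3 scans per array, both spot copies and all hybridisations, per the series' design text. Background correction, normalization method, the filter behind empty cells and the numerator of the fold were not given in the sources used here. Of 32448 features, between 20711 and 28090 had a value per array. In 0 features did filled columns differ by more than 1e-06, so limma was not run, and values were described by size, at 1.5-fold. Column medians lay between -0.0005 and 0.0066 on the log2 scale. The number of arrays limits the precision.

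Copies lie 2 blocks apart. Symbols came from GEO's platform annotation, updated by Entrez identifier or accession from RefSeq's Release 6 table. A gene's value is the median over its probes, counting equal values once. All members with a value are named, as are all measured genes of lists of up to 8. Of longer lists, up to 4 genes furthest from 0 are named. The P450 and UDP-glycosyltransferase families were only summarised, and no gene of theirs is named. The other glutathione turnover genes, Vha100-4, Acp26Aa and Acp53Ea were named after their values were seen. The family's rule, the lists and the 1.5-fold rule were chosen with earlier results of these data known. Alternatives were other probe joining, spot and array filters, centring, symbols as annotated, other thresholds and leaving out each array. The conversion to log2 was tested on simulated data. Python 3.11.15, numpy 2.4.6, pandas 2.3.3 and matplotlib 3.10.9 were used.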

Additional observations from a re-analysis of the deposited data

How the results depend on the processing

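Leaving out single arrays aside, 76 of 84 alternative values for medians and counts stayed close to the value reported (medians within the SD between probes, counts within 1.5 times). For 31 of the 32 members, with 1 valued probe each, probe joining cannot change the value and a filter can only remove it. Their single values were therefore not put to a test by these settings. Joining probes by their mean or keeping symbols as annotated left the family's medians and counts as they were. The limit of 0.18 is also wide beside class medians of -0.05 to 0.17. A Sigma median of -0.02 with the probe of most usable spots, in place of 0.08, was still counted as close. The tally therefore says little about stability. With probes on all 5 arrays only, the Omega median was 0.29 over 2 genes, 0 members lay beyond 1.5-fold on the negative side and the accessory gland median was -0.40 over 2 genes. With at least 5 usable spots the negative count was also 0, since GstE7 is then left out. At 2-fold 0 members lay on the positive side, where 0.711% of all genes lay. At 1.2-fold, a threshold added after the data were seen, 6 of 32 members lay there (8.98% of all genes) and 1 on the negative side (9.9% of all genes). The Epsilon genes outside the main run, also split after the data were seen, had a median of 0.34. With the SD over all probes (0.56), also added later, 1 member lay above the band in place of 8. Leaving out each array moved no member's value, because every column repeats the combined value, so it says nothing about stability and is left out of the tally above. Each array holds both groups, but no paired analysis was possible because the deposited value is already combined over the arrays. Depth limits the values of the 7 members with 5 or fewer usable spots.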
